A study of Mus musculus with 12 samples.

Results

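The genes for the proteins of the cytosolic ribosome were followed in RNA sequencing of mouse small intestine, in 12 libraries of 4 groups with 3 libraries each. Members were chosen by name: Rpl or Rps with a number and at most a final a or x, together with Rplp0, Rplp1, Rplp2 and Rpsa. Of the 55484 genes in the deposited table, 76 matched, and all 76 passed a filter of at least 1 FPKM in 3 or more libraries, which 12847 genes passed. They comprise 30 genes of the small subunit, 43 of the large subunit and 3 of the P-stalk, the arm of the large subunit that binds translation factors. FPKM divides a gene's fragments by transcript length and by the library's mapped fragments, so levels of different genes are given per length. Shifts by coding length between libraries and reads split with near-identical copies, both described below, limit such a comparison between genes.

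The MSC+Mel and Mel+MSC groups received both mesenchymal stem cells (MSC) and melphalan, the Melphalan group the drug alone, and the Control group is labelled as wild type. Melphalan, a cancer drug, alkylates and crosslinks DNA, which harms tissues whose cells divide often, the gut epithelium among them. The stem cells came from human umbilical cord, and the study asks how they bear on that injury. The labels give no strain, age, dose or time, and do not say what the order of the names in MSC+Mel and Mel+MSC stands for. They do not say that the libraries came from separate animals either, so p-values reflect no more than how these libraries vary, and that variation may be technical. In such bulk tissue, fewer cells of a type and less RNA per cell cannot be told apart.

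Each cytosolic ribosome holds a single copy of most of its proteins, and the cell makes them in matched amounts. Their mRNAs are short and among the most abundant of a cell. In mammals most begin with a 5′-terminal oligopyrimidine (TOP) tract, a C followed by a run of C and T (C and U in the mRNA), through which the mTOR kinase and the binding protein LARP1 control their translation. Free Rpl5 and Rpl11 can bind Mdm2, the ubiquitin ligase that degrades p53, so that a disturbed ribosome supply can raise p53. In the intestine, ribosome production is highest in the dividing cells of the crypts.

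The start regions of these genes show what members share beyond their names, and 56 of the 76 were found in RefSeq's promoter table of build GRCm38.p6. The windows below run from 10 bases before the annotated start to 20 bases from the start onwards, written 5′ to 3′ on the gene's strand. Capitals mark the tract, counted from its first C within 5 bases of the start. The first 4 genes hold a tract and return in the comparisons below, and the last 3, which have none in this window, are the member of widest range over the libraries (Rps28), the one of shortest coding length (Rpl41) and the one of narrowest range (Rpl10).
Rplp2, chr7:141447641-141447670, plus strand: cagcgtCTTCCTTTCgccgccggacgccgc
Rpl38, chr11:114668570-114668599, plus strand: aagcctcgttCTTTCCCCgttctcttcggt
Rps6, chr4:86857348-86857377, minus strand: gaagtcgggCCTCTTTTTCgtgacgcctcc
Rps2, chr17:24720053-24720082, plus strand: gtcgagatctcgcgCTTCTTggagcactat
Rps28, chr17:33824543-33824572, minus strand: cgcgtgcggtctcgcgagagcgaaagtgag
Rpl41, chr10:128549149-128549178, minus strand: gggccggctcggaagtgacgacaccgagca
Rpl10, chrX:74270806-74270835, plus strand: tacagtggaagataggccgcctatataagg

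A tract of a C followed by at least 4 pyrimidines, starting within 5 bases of the annotated start on the gene's strand, was found in 27 of 56 members (48.2%), against 19.7% of the 27025 genes with an entry. The letters CGGAAG, on either strand of the 300 bases from 250 before to 50 after the start, occurred in 39 of 56 members (69.6%), against 18.8% of all entries. TATAAA, on the gene's strand between 50 and 11 bases before the start, occurred in 0 of 56 members, against 2.89% of all entries. Such matches are letters in a window placed on an annotated start, and a start annotated a few bases off can hide a tract.

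Per length, Rps27 was the most abundant member, with a mean of 2582 FPKM over the 12 libraries. Rplp1, a P-stalk protein, followed at 2389 FPKM and Rps14, of the small subunit, at 2306 FPKM. The lowest 3 were Rpl21 at 263 FPKM, Rpl27a at 252 FPKM and Rpl35 at 210 FPKM. The members together held 8.85%, 8.04% and 8.15% of the summed FPKM in the MSC+Mel libraries and 11.99%, 12.5% and 8.07% in the Mel+MSC libraries. They held 6.09%, 11% and 7.01% in the Melphalan libraries and 9.80%, 10.4% and 7.93% in the Control libraries. The shares overlapped between every pair of groups, since the lowest Mel+MSC library lay inside the MSC+Mel range and the Melphalan libraries spanned it. The summed FPKM itself ran from 516851 to 796980 over the libraries, and mitochondrially encoded genes took 6.19% to 16.8% of it, so a share also moves with what else a library holds.

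The 3 MSC+Mel libraries were close together, and the Mel+MSC libraries were not. The median member had an SD over 3 libraries, on the log2(FPKM + 1) scale, of 0.16 in MSC+Mel, 0.68 in Mel+MSC, 0.32 in Melphalan and 0.28 in Control. The median over all tested genes was 0.15, 0.32, 0.34 and 0.26 in the same 4 groups. Mel+MSC replicate 1 held the highest value of 60 of the 76 members, and Mel+MSC replicate 3 the lowest value of 33. Replicates 1 and 2 of Mel+MSC had medians of 0.72 and 0.60 above each member's mean of 12 libraries on the log2 scale, while replicate 3 had a median of -0.44. Melphalan replicate 1 was at -0.26, replicate 2 at 0.27 and replicate 3 at -0.01.

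**Figure D1:**
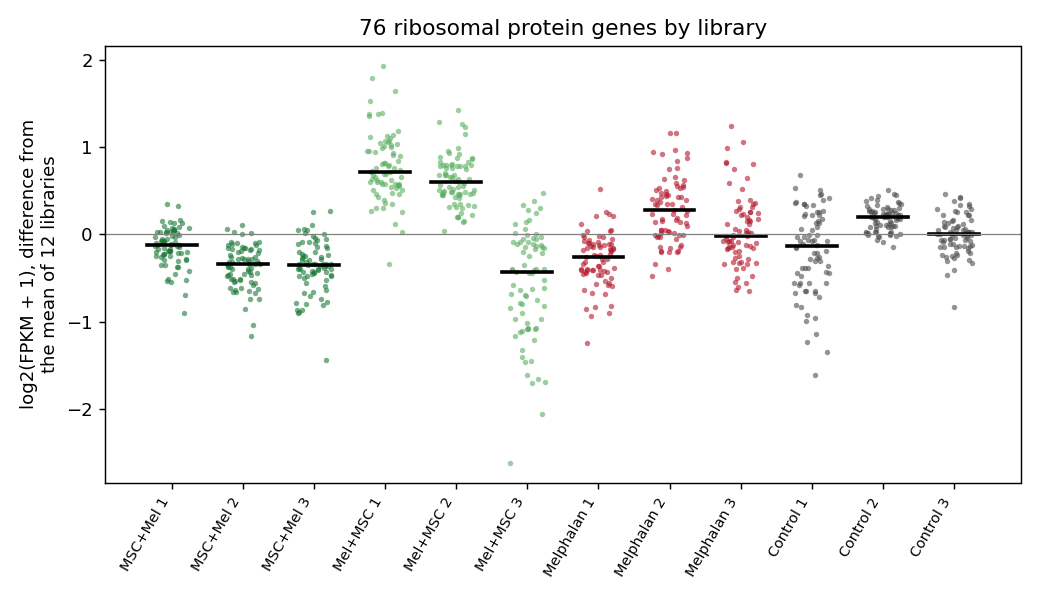
Each point is 1 of 76 ribosomal protein genes in 1 library, as log2(FPKM + 1) minus the gene's mean over 12 libraries, with a black bar at the median; colours mark the 4 groups. Mel+MSC replicates 1 and 2 lie above the other libraries and replicate 3 lies at -0.44, the lowest median of the 12.

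These libraries also differed in cell markers. Goblet cell markers summed to 692 FPKM in Mel+MSC replicate 3, against 2870 to 7722 FPKM in the other libraries, with all 7 markers tested. B cell markers summed to 652 FPKM in Melphalan replicate 2, against 0.915 to 78.2 FPKM elsewhere, with macrophage markers at 728 FPKM and T cell markers at 155 FPKM there. Crypt stem and transit cell markers (9 of 10 past the filter) summed to 389 to 446 FPKM in MSC+Mel, 239 to 422 FPKM in Mel+MSC, 64.2 to 83.9 FPKM in Melphalan and 206 to 638 FPKM in Control. In Melphalan against Control, 3 of the 9 (Olfm4, Ccna2 and Top2a) were called lower (0.833% of all tested genes were). The median of the 9 was -1.68, and limma counted 8 lower at an unadjusted p under 0.05 (9.37% of all genes). Against Melphalan, 3 were called higher in MSC+Mel and 1 in Mel+MSC (0.817% and 0.109% of all genes). Enterocyte markers, all 10 past the filter, summed to 19210 to 22850 FPKM in MSC+Mel, 11440 to 35100 FPKM in Mel+MSC, 32780 to 68590 FPKM in Melphalan and 14150 to 28180 FPKM in Control. In Melphalan against Control all 10 enterocyte markers were fitted above 0 (52.4% of all tested genes were), with a median log2 difference of 1.09. Called were 0 (1.33% of all genes), and limma counted 6 higher at an unadjusted p under 0.05 (8.81% of all genes). Erythroid markers summed to 27.5 to 113 FPKM in Control, against 0 to 13.7 FPKM in the other 3 groups. Of 4 past the filter, 2 (Hba-a1 and Hba-a2) were called lower than in Control, in Melphalan and in MSC+Mel (0.833% and 0.109% of all genes). They may have passed the filter only through Control, the group where they are high, so these calls are given no weight. Paneth cell markers, all 7 past the filter, summed to 563 to 925 FPKM in MSC+Mel, 356 to 1399 FPKM in Mel+MSC, 491 to 724 FPKM in Melphalan and 1161 to 1791 FPKM in Control. In Melphalan against Control 1 (Ang4) was called lower (0.833% of all genes), and limma counted 5 lower at an unadjusted p under 0.05 (9.37%). It also counted 5 lower in Mel+MSC and 5 in MSC+Mel against Control (2.79% and 6.13% of all genes). The other marker lists had sums over the libraries of all 4 groups of 478 to 4643 FPKM for plasma cells, 301 to 666 FPKM for smooth muscle, 31.9 to 153 FPKM for fibroblasts, 7.13 to 34.6 FPKM for endothelium and 9.62 to 33.8 FPKM for pancreatic acinar cells. The part of these differences in the values below was not tested.

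The range of a member over the libraries was wider where its coding length was short. Over the 12 libraries, the highest FPKM exceeded the lowest by a median factor of 3.53 in the 9 members with a coding length under 300 bases, 3.27 in the 46 members of 300 to under 600 bases, and 2.04 in the 21 members of 600 bases or more. Rps28, a small subunit protein with a coding length of 207 bases, varied most, by a factor of 21.8. Rpl38, at 210 bases, followed with 12.4, Rpl36a, at 318 bases, with 10.8. Rpl41, the shortest at 75 bases, was the fifth widest with 7.80. Rpl10, which joins the large subunit late in its maturation, varied least, by a factor of 1.49, and Rpl4 by 1.51. Coding length and range on the log2 scale had a Spearman rho of -0.59 and a Pearson r of -0.62 (on log2 length) over the 76 genes, which share the same libraries; mean FPKM and range had a rho of -0.27.

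Rps28 had 240, 196 and 148 FPKM in MSC+Mel, 894, 626 and 41.1 FPKM in Mel+MSC, 211, 578 and 534 FPKM in Melphalan, and 83.8, 259 and 355 FPKM in Control. Rpl41 had 872, 717 and 646 FPKM in MSC+Mel, 3514, 3035 and 450 FPKM in Mel+MSC, 877, 1667 and 2246 FPKM in Melphalan, and 482, 1154 and 1203 FPKM in Control. Both were highest in Mel+MSC replicates 1 and 2 and lowest in replicate 3 of the same group. Rpl10 had 1318, 1138 and 1144 FPKM in MSC+Mel, 1572, 1563 and 1283 FPKM in Mel+MSC, 1122, 1104 and 1054 FPKM in Melphalan, and 1476, 1351 and 1254 FPKM in Control. Its Mel+MSC and Control libraries all lay above its Melphalan libraries.

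In the Mel+MSC and MSC+Mel libraries, genes outside the family had the same order by length. Among tested coding genes that are no members, those under 300 bases (306 genes) had medians of 0.43, 0.37 and -0.73 in Mel+MSC replicates 1, 2 and 3, relative to each gene's mean on the log2 scale. Those of 2400 bases or more (2349 genes) had -0.15, -0.11 and 0.19 in the same libraries. In MSC+Mel the short genes stood at -0.22, -0.35 and -0.36 and the long ones at 0.06, 0.12 and 0.13. Control replicate 1 was the low one of its group for short genes, at -0.19, against 0.11 and 0.26 in replicates 2 and 3. The 9 members under 300 bases had medians of 1.02, 0.92 and -0.97 in the Mel+MSC libraries. In Melphalan replicates 1, 2 and 3 they had -0.31, 0.35 and 0.25, against 0.22, -0.01 and 0.32 in other genes of that length. Short members and other short genes thus differed in sign in Melphalan replicates 1 and 2. The median range on the log2 scale was 1.81 in these 9 members and 1.85 in other genes of that length, and 1.71 and 1.45 at 300 to under 600 bases. Members of 600 bases or more had 1.03, against 1.20 in other genes of 600 to under 1200 bases. All 76 members had 1.47, against 1.46 in 368 other genes at or above the lowest mean FPKM of a member.

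**Figure D2:**
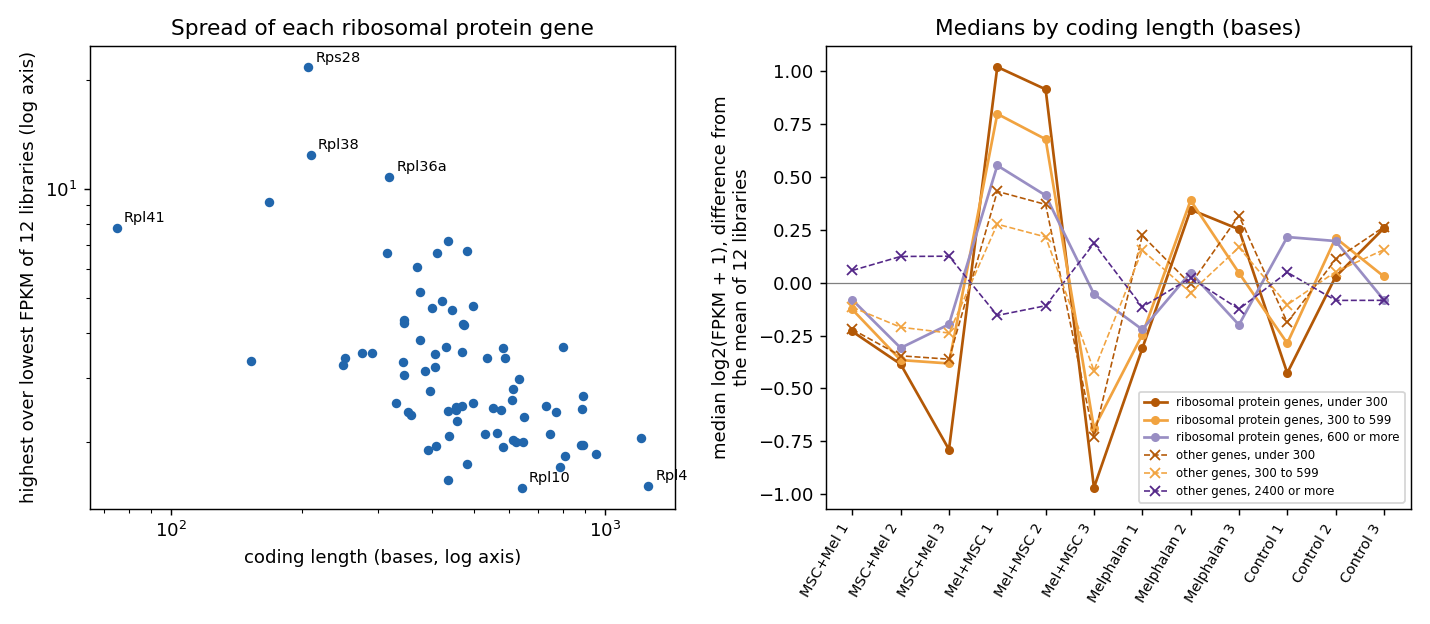
Left, coding length in bases against the highest over the lowest FPKM of 12 libraries for each ribosomal protein gene, both axes logarithmic; right, the median log2(FPKM + 1) relative to each gene's mean, by library and coding length class, with solid lines for ribosomal protein genes and dashed lines for other genes. Short genes of both kinds were low in Mel+MSC replicate 3, at -0.97 for members and -0.73 for other genes under 300 bases.

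No member passed the test in any of the 6 comparisons between groups. The test was limma on log2(FPKM + 1) over all 12 libraries, with genes called at a Benjamini-Hochberg adjusted p under 0.05. A fold change below is a fitted log2 difference on that scale.

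Melphalan against Control asks what the drug did. The family had no common direction: its median log2 difference was -0.03, against 0.03 for all tested genes, and 34 of 76 members were fitted above 0 (52.4% of all genes were). Called were 0 members, against a background of 1.33% of all tested genes, and at an unadjusted p under 0.05 limma counted 0 members higher and 4 lower, against 8.81% and 9.37% of all genes. In 6 members every Melphalan library was below every Control library and in 0 above, against 10.7% and 8.82% of all genes. Rpl10, Rpl14 and Rps2 were among them.

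The lowest fitted differences were those of Rps3, Rps2 and Rps6, with coding lengths of 729, 879 and 747 bases. Rps2, which lines the mRNA entry channel of the small subunit, had 657, 675 and 713 FPKM in Melphalan, against 1287, 1051 and 814 FPKM in Control. The groups did not overlap, and the log2 difference was -0.60 ± 0.22 (SE, n = 3 each; limma adjusted p = 0.184). Rps6, the substrate of S6 kinase, had 566, 588 and 460 FPKM in Melphalan, against 968, 894 and 578 FPKM in Control, with 1 Melphalan library above the lowest Control library (log2 difference -0.57 ± 0.24, limma adjusted p = 0.241). Rps3, also known for a role in DNA repair, had 321, 499 and 307 FPKM in Melphalan, against 771, 683 and 382 FPKM in Control, which overlapped (-0.68 ± 0.32, limma adjusted p = 0.296).

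Among the ribosomal proteins that can bind Mdm2, Rpl5 had 237, 365 and 232 FPKM in Melphalan, against 393, 455 and 340 FPKM in Control (log2 difference -0.53). Rpl11 had 161, 545 and 356 FPKM in Melphalan, against 232, 335 and 249 FPKM in Control (0.23). The values of Rpl11 spanned those of Control on both sides, with the highest in Melphalan replicate 2, the library with B cell markers at 652 FPKM. Rpl11 was also at 498 and 448 FPKM in Mel+MSC replicates 1 and 2, where those markers summed to 2.43 and 78.2 FPKM. A link between the 2 was not tested. Rpl23, also of this set, had 225, 446 and 446 FPKM in Melphalan, against 169, 262 and 241 FPKM in Control (0.69).

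The highest fitted differences were those of Rpl38, Rps28 and Rpl28. Rpl38, known from mouse mutants for its role in the translation of Hox mRNAs, had 640, 1239 and 1309 FPKM in Melphalan, against 277, 528 and 700 FPKM in Control (1.11 ± 0.75, limma adjusted p = 0.463). Rps28 was fitted at 1.02 ± 0.97 and Rpl28 at 0.92 ± 0.63. In all 3 genes the groups overlapped as a whole, while Melphalan was the higher in each of the 3 pairs of libraries with the same number. With the number as a block none of them was called. Members of 600 bases or more had a median of -0.19, those of 300 to under 600 bases 0.02 and those under 300 bases 0.28.

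Mel+MSC against Melphalan asks how the stem cells bear on the drug's effect in that group. Members were mostly fitted higher: the median was 0.27, against -0.01 for all tested genes, and 65 of 76 were above 0 (49% of all genes). Called were 0 members, against a background of 0.156%, and at an unadjusted p under 0.05 limma counted 9 members higher and 0 lower, against 7.16% and 6.44% of all genes. In 10 members every Mel+MSC library was above every Melphalan library and in 0 below, against 8.37% and 5.91% of all genes. Of these 10, 7 have a coding length of 600 bases or more and 3 of 300 to under 600 bases.

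Rps2 had the highest fitted difference, with 1226, 1187 and 1084 FPKM in Mel+MSC, against 657, 675 and 713 FPKM in Melphalan. The groups were clear of each other (0.77 ± 0.22, limma adjusted p = 0.184). Rps15a, of the small subunit, had 727, 728 and 667 FPKM in Mel+MSC, against 395, 538 and 383 FPKM in Melphalan (0.70 ± 0.23, limma adjusted p = 0.242). Rps14, also of the small subunit, had 3320, 3059 and 2902 FPKM in Mel+MSC, against 2572, 1597 and 1767 FPKM in Melphalan (0.67 ± 0.28, limma adjusted p = 0.329). Neither gene overlapped between the groups. Rps6 was fitted at 0.54 and Rpl5 at 0.59, and both lay outside the range of the other group in every library. Rpl11 was fitted at 0.06, with 498, 448 and 160 FPKM in Mel+MSC.

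The lowest fitted values were Rps28 at -0.49 ± 0.97, Rpl36a at -0.45 ± 0.72 and Rpl38 at -0.39 ± 0.75. All 3 turned positive when Mel+MSC replicate 3 was left out, to 0.89, 0.62 and 0.71. Without that library the median of the family was 0.69, and 0 members were called against a background of 0.0156%.

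MSC+Mel against Melphalan asks the same of the other combined group. Here the members lay mostly lower in FPKM, with a median of -0.30, against -0.05 for all tested genes, and 20 of 76 above 0 (45.9% of all genes). The sign of this median turned with the scaling, to 0.12 after rescaling to equal sums (which moved the median of all genes to 0.30, so that members stood at -0.17 relative to it) and to 0.21 after quantile normalization. Called were 0 members, against a background of 1.24%, and at an unadjusted p under 0.05 limma counted 0 members higher and 5 lower, against 11.3% and 10.9% of all genes. In 21 members every MSC+Mel library was below every Melphalan library and in 1 (Rpl10) above, against 17.2% and 16.3% of all genes.

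Rplp2, an acidic P-stalk protein, had the smallest p of the family in this comparison. It had 682, 489 and 591 FPKM in MSC+Mel, against 1581, 1093 and 1152 FPKM in Melphalan. No library overlapped, and the log2 difference was -1.11 ± 0.29 (limma adjusted p = 0.0782; 0.0542 to 0.250 over the alternatives, with every fitted value below 0). Rpl38 had 296, 269 and 203 FPKM in MSC+Mel, against 640, 1239 and 1309 FPKM in Melphalan. These groups did not overlap either (-1.997 ± 0.75, limma adjusted p = 0.161), and Rpl38 was called when the 6 libraries of both groups were fitted alone (limma adjusted p = 0.0345, and 0.0345 to 0.360 over all alternatives; background 4.95%). Rps15, of the small subunit, was fitted at -1.12 ± 0.60, with 540, 451 and 374 FPKM in MSC+Mel, against 677, 1347 and 1038 FPKM in Melphalan.

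The highest fitted values were Rpl37 at 0.47 ± 0.44, Rps3 at 0.45 ± 0.32 and Rpl39 at 0.42 ± 0.34, none of them called. Length was again in view. Members under 300 bases had a median of -0.78, those of 300 to under 600 bases -0.37 and those of 600 bases or more -0.06. Other coding genes had -0.48 under 300 bases, -0.32 at 300 to under 600 bases, -0.14 at 600 to under 1200 bases and 0.13 at 2400 bases or more. With the length trend of the other genes taken off each library, the median of the members was -0.01.

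MSC+Mel against Mel+MSC sets the combined groups against each other. The members lay lower in MSC+Mel, with a median of -0.58, against -0.01 for all tested genes, and 2 of 76 above 0 (48.6% of all genes). This median kept its sign after rescaling to equal sums (-0.30, or -0.52 relative to all genes), after quantile normalization (-0.14) and with the length trend removed (-0.40). Called were 0 members, against a background of 0.00778%, and at an unadjusted p under 0.05 limma counted 0 members higher and 25 lower, against 5.27% and 6.89% of all genes. In 18 members every MSC+Mel library was below every Mel+MSC library and in 0 above, against 11.8% and 11.7% of all genes.

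Rplp2 had 682, 489 and 591 FPKM in MSC+Mel, against 2125, 1504 and 1060 FPKM in Mel+MSC. The groups were separate in every library (-1.37 ± 0.29, limma adjusted p = 0.188). Rplp0, which carries the other P-stalk proteins, had 965, 810 and 890 FPKM in MSC+Mel, against 1499, 1415 and 1112 FPKM in Mel+MSC (-0.59). Rplp1 had 1874, 1557 and 1409 FPKM in MSC+Mel, against 4582, 4050 and 1379 FPKM in Mel+MSC (-0.88), and its lowest library overall was Mel+MSC replicate 3. Rpsa, a small subunit protein also known as the laminin receptor, had 612, 492 and 531 FPKM in MSC+Mel, against 1208, 1107 and 696 FPKM in Mel+MSC (-0.85).

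Rpl38 was fitted at -1.61 ± 0.75 and Rpl41 at -1.19 ± 0.70, both with Mel+MSC replicate 3 below the MSC+Mel libraries. The values nearest to or above 0 were Rpl37 at 0.03, Rpl19 at 0.02 and Rps3 at -0.00443, whose sign turned with the scaling. By coding length the medians of members were -0.83 under 300 bases, -0.61 at 300 to under 600 bases and -0.49 at 600 bases or more. Other coding genes had -0.32 under 300 bases, -0.22 at 300 to under 600 bases and -0.08 at 600 to under 1200 bases.

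The number of calls in this comparison rested on 1 library, while its median stayed below 0 whichever library was left out (-0.96 to -0.31). Without Mel+MSC replicate 3, 22 members were called, 28.9% of the family, against a background of 3.1% of all genes in that fit. All 22 were lower in MSC+Mel and 0 higher, against 2.59% and 0.506% of all genes. The median of the family was then -0.96. Those with the smallest p were Rplp2 at -1.62 ± 0.26 (limma adjusted p = 0.0266), Rpl38 at -2.71 ± 0.44 (limma adjusted p = 0.0270) and Rps9, of the small subunit, at -1.56 ± 0.25 (limma adjusted p = 0.0270). Over all alternatives these adjusted p-values from limma ran up to 0.818 for Rplp2 and 0.870 for Rpl38. Among the others were Rpl22 at -1.29, Rplp1 at -1.43, Rpsa at -1.09, Rpl23 at -1.64, Rps27a at -0.98 and Rpl41 at -2.14. Mel+MSC replicates 1 and 2, which remain in that fit, also had the highest levels of short genes outside the family.

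**Figure D3:**
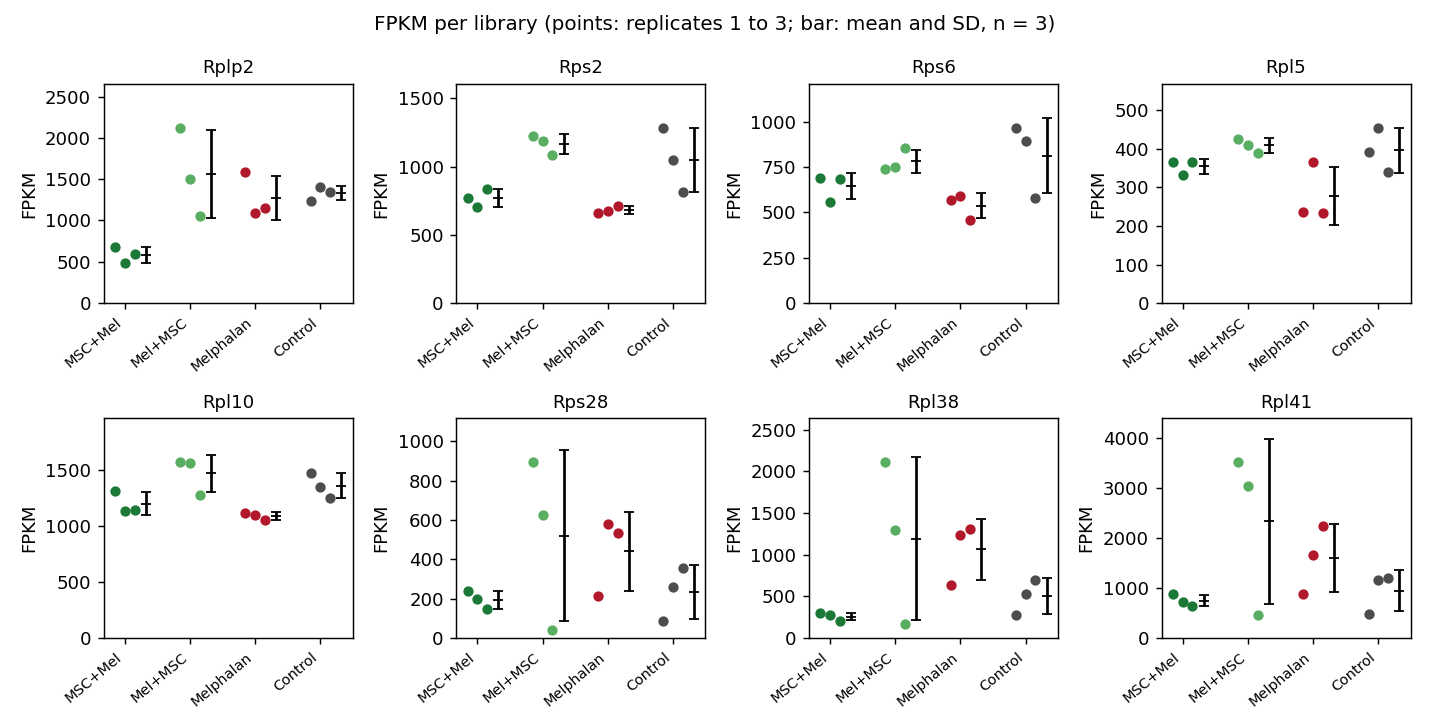
FPKM of 8 ribosomal protein genes, with a point for each of the 3 libraries of a group and a bar at the mean with its SD; the groups run MSC+Mel, Mel+MSC, Melphalan, Control. Rplp2 lies between 489 and 682 FPKM in MSC+Mel and at 1060 FPKM or more in every other library, while Rps28, Rpl38 and Rpl41 have their widest spread in Mel+MSC.

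The combined groups were also set against Control. In Mel+MSC against Control the median of the members was 0.29, against 0.01 for all genes, with 69 of 76 above 0 (52.1% of all genes). Called were 0 members, against a background of 0%, and at an unadjusted p under 0.05 limma counted 1 member higher (Rpsa) and 0 lower, against 2.61% and 2.79% of all genes. In 1 member (Rplp0) every Mel+MSC library was above every Control library and in 0 below, against 5.4% and 5.07% of all genes. The highest fitted values were Rpl28 at 1.05 ± 0.63, Rpl41 at 0.95 ± 0.70 and Rpl38 at 0.73 ± 0.75, and the lowest were Rps3 at -0.23 ± 0.32, Rpl29 at -0.19 ± 0.22 and Rpl14 at -0.14 ± 0.31. Without Mel+MSC replicate 3 the median was 0.67, with 0 members called against a background of 0.00778%.

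In MSC+Mel against Control the median was -0.25, against -0.01 for all genes, with 9 of 76 above 0 (48.8% of all genes). It was -0.21 relative to all genes after rescaling to equal sums, and 0.00623 after quantile normalization. By coding length, members had -0.24 under 300 bases, -0.26 at 300 to under 600 bases and -0.23 at 600 bases or more. Other coding genes had -0.36 under 300 bases, -0.21 at 300 to under 600 bases and -0.07 at 600 to under 1200 bases. Called were 0 members, against a background of 0.171% (0.0623% higher and 0.109% lower), and at an unadjusted p under 0.05 limma counted 0 members higher and 7 lower, against 5.61% and 6.13% of all genes. In 20 members every MSC+Mel library was below every Control library and in 1 (Rpl39) above, against 14.4% and 13.4% of all genes. Rplp2 again had the smallest p, with 682, 489 and 591 FPKM in MSC+Mel, against 1238, 1410 and 1341 FPKM in Control, which did not overlap (-1.19 ± 0.29, limma adjusted p = 0.171). Rpl38 was fitted at -0.88 ± 0.75 and Rps21 at -0.80 ± 0.34, and the highest were Rpl37 at 0.44 ± 0.44, Rpl39 at 0.36 ± 0.34 and Rpl28 at 0.27 ± 0.63. Comparisons with a common group share its 3 libraries, so the recurrence of Rplp2 and Rpl38 is not independent.

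**Figure D4:**
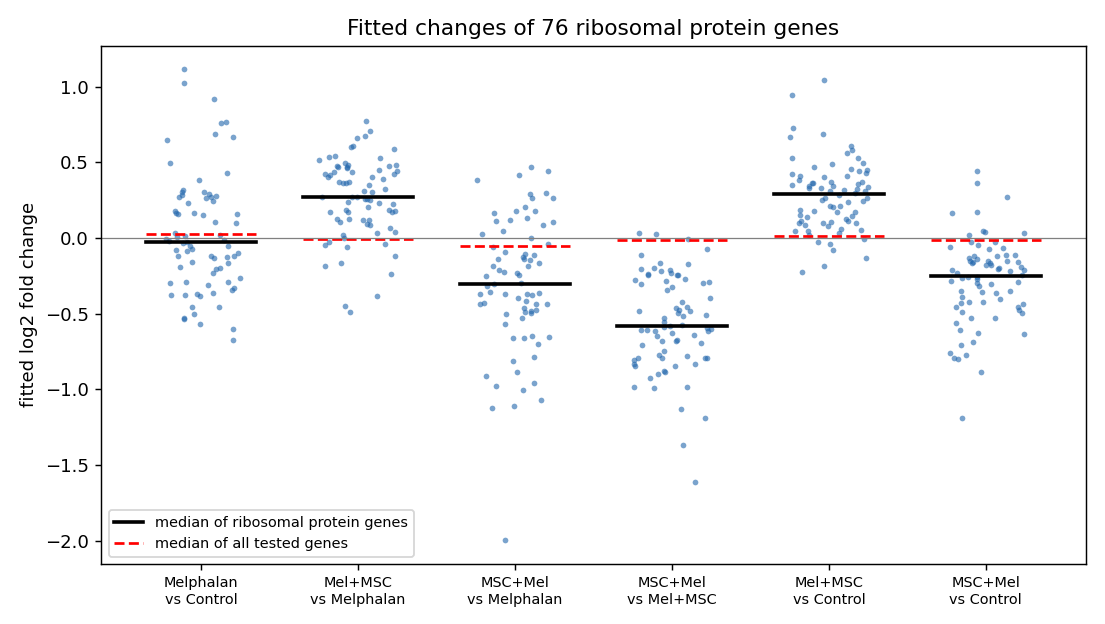
Fitted log2 fold change of each of 76 ribosomal protein genes (points) in 6 comparisons, with the median of the family in black and that of all 12847 tested genes as a dashed red line. The family median runs from -0.58 in MSC+Mel against Mel+MSC to 0.29 in Mel+MSC against Control; in MSC+Mel against Melphalan it turns from -0.30 to 0.12 or 0.21 under rescaling to equal sums or quantile normalization, and in MSC+Mel against Control from -0.25 to 0.00623 under quantile normalization.

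Ratios within a library take out its overall scale. Rplp2 over Rplp0 was 0.707, 0.604 and 0.664 in MSC+Mel, 1.42, 1.06 and 0.953 in Mel+MSC, 1.74, 1.19 and 1.11 in Melphalan, and 1.22, 1.37 and 1.57 in Control. Every MSC+Mel library lay below every other library. Rplp1 over Rplp0 was 1.94, 1.92 and 1.58 in MSC+Mel, 3.06, 2.86 and 1.24 in Mel+MSC, 2.32, 2.83 and 2.80 in Melphalan, and 1.67, 1.95 and 2.92 in Control. In this ratio, too, every MSC+Mel library lay below every Melphalan library, while all other pairs of groups overlapped. Rplp2 and Rplp1 have coding lengths of 345 and 342 bases, against 951 bases for Rplp0. These ratios were chosen with the values known and carry no test.

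**Figure D5:**
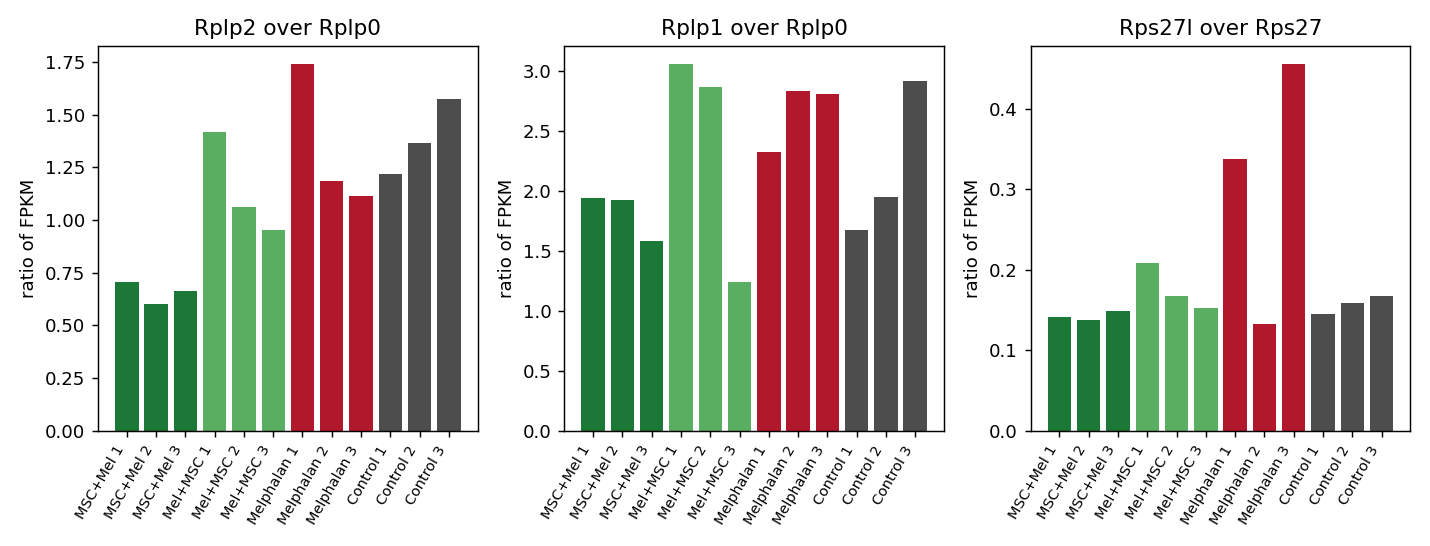
Ratio of FPKM within each of 12 libraries for Rplp2 over Rplp0, Rplp1 over Rplp0 and Rps27l over Rps27 (bars, coloured by group). Rplp2 over Rplp0 is 0.604 to 0.707 in MSC+Mel and at least 0.953 elsewhere, and Rps27l over Rps27 is highest in Melphalan replicates 1 and 3.

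The other members with known special roles gave no call in any comparison. Rps27, a zinc finger protein of the small subunit, had 2508, 2264 and 2075 FPKM in MSC+Mel, 3483, 4267 and 1253 FPKM in Mel+MSC, 1977, 2975 and 1678 FPKM in Melphalan, and 2276, 2917 and 3305 FPKM in Control. Rps27a, made as a fusion with ubiquitin, had 742, 546 and 673 FPKM in MSC+Mel, 1371, 1190 and 948 FPKM in Mel+MSC, 777, 736 and 764 FPKM in Melphalan, and 1015, 960 and 773 FPKM in Control. Its MSC+Mel libraries lay below those of Mel+MSC and of Control. Rpl13a, known in human cells as a brake on the translation of inflammatory mRNAs, had 1099, 877 and 1286 FPKM in MSC+Mel, 2282, 1809 and 1524 FPKM in Mel+MSC, 1642, 2081 and 1426 FPKM in Melphalan, and 1898, 2158 and 1568 FPKM in Control. The MSC+Mel values lay below all others. Rps19, whose human gene is mutated in Diamond-Blackfan anaemia, had 688, 533 and 488 FPKM in MSC+Mel, 892, 817 and 400 FPKM in Mel+MSC, 575, 971 and 671 FPKM in Melphalan, and 641, 774 and 547 FPKM in Control, with all groups overlapping. Rpl22, which is dispensable for ribosomes in many mouse cells, had 635, 480 and 524 FPKM in MSC+Mel, 1479, 1197 and 471 FPKM in Mel+MSC, 652, 681 and 668 FPKM in Melphalan, and 588, 766 and 852 FPKM in Control.

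By start region and by subunit the family was alike in sign. The 27 members with a tract and the 29 without had medians of -0.03 and -0.03 in Melphalan against Control, -0.61 and -0.48 in MSC+Mel against Mel+MSC, and -0.43 and -0.30 in MSC+Mel against Melphalan. By subunit, MSC+Mel against Mel+MSC gave medians of -0.61 for the small subunit, -0.48 for the large subunit and -0.88 for the P-stalk, and Mel+MSC against Melphalan gave 0.41, 0.26 and 0.26.

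Ribosomal proteins and close copies whose names fall outside the rule were described beside the family. Of 11, 8 passed the filter and 0 were called in any comparison. At an unadjusted p under 0.05 limma counted 2 higher in Mel+MSC against Melphalan (7.16% of all genes were). It counted 2 lower in MSC+Mel against Mel+MSC (6.89% of all genes), and at most 1 in each direction elsewhere. The list had a median of -0.62 in MSC+Mel against Melphalan and -0.53 in MSC+Mel against Mel+MSC. Fau, which encodes the small subunit protein eS30 fused to a ubiquitin-like protein, had 742, 654 and 767 FPKM in MSC+Mel, 2181, 1529 and 850 FPKM in Mel+MSC, 2014, 1498 and 1495 FPKM in Melphalan, and 1286, 1118 and 1653 FPKM in Control. Every MSC+Mel library lay below every other library (against Melphalan, -1.20 ± 0.33, limma adjusted p = 0.0868). Rack1, a scaffold on the small subunit, was fitted at 0.20 in that comparison.

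Rps27l, a paralog of Rps27 and a target of p53, had 356, 312 and 308 FPKM in MSC+Mel, 724, 716 and 190 FPKM in Mel+MSC, 669, 393 and 764 FPKM in Melphalan, and 330, 464 and 554 FPKM in Control. Rps27l over Rps27 was 0.142, 0.138 and 0.149 in MSC+Mel, 0.208, 0.168 and 0.152 in Mel+MSC, 0.338, 0.132 and 0.455 in Melphalan, and 0.145, 0.159 and 0.168 in Control. Melphalan replicates 1 and 3 lay above all other libraries and replicate 2 below them. Against Melphalan, MSC+Mel gave -0.61 for Rpl22l1, -0.76 for Rpl36al, 0.50 for Rpl7l1 and -0.63 for Rps4l. Rpl3l, Rpl10l and Rpl39l were at most at 0.147, 0 and 0.253 FPKM in any library.

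The surrounding pathways were described by lists. Of 16 other TOP mRNAs of translation, 30 ribosome biogenesis genes, 11 RNA polymerase I genes and 14 tested genes that control ribosomal protein genes and their mRNAs, 0 were called by limma in any comparison. The biogenesis genes had medians of -0.34 in Melphalan against Control, 0.33 in Mel+MSC against Melphalan and 0.34 in MSC+Mel against Melphalan, with 6 lower, 3 higher and 8 higher at an unadjusted p under 0.05. The other TOP mRNAs had medians of -0.07, 0.30 and -0.03 in the same comparisons, with 3 lower in the first, 1 higher in the second and 2 higher in the third at that p. Of all tested genes, 9.37% were lower and 8.81% higher at that p in the first comparison, 6.44% lower and 7.16% higher in the second, and 10.9% lower and 11.3% higher in the third. For the RNA polymerase I genes the counts at that p were 0 in all 3, and for the control genes 2 higher in the first, 1 lower in the second, and 3 higher and 1 lower in the third.

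A list drawn up for the path from ribosomal stress to p53 also holds general p53 targets, which DNA damage induces too. Of its 9 tested genes, 4 such targets (Phlda3, Gdf15, Ccng1 and Zmat3) were called higher in Melphalan than in Control (0.498% of all tested genes were), and 2 of these were called lower in MSC+Mel and in Mel+MSC than in Melphalan (0.42% and 0.0467% of all tested genes were). Phlda3, a p53 target that restrains Akt, had 2.49, 2.77 and 3.90 FPKM in MSC+Mel, 3.76, 5.32 and 2.37 FPKM in Mel+MSC, 20.9, 13.7 and 13.0 FPKM in Melphalan, and 3.28, 2.04 and 1.495 FPKM in Control. Melphalan stood clear of the other groups (against Control, 2.37 ± 0.29, limma adjusted p = 0.00786). Ccng1, cyclin G1, rose by 1.53 ± 0.24 (limma adjusted p = 0.0176). Gdf15, a secreted stress factor, was fitted at 1.93 ± 0.26. It had 4.38, 2.68 and 4.06 FPKM in Melphalan and at most 0.813 FPKM in any other library. Gdf15 thus passed the filter only through Melphalan, the group where it is high, so its calls above carry no weight as a test. The p53 regulators were not called: Mdm2 was fitted at 0.50 ± 0.16 (limma adjusted p = 0.139), Mdm4 at 0.21 ± 0.24 and Trp53 itself at -0.46 ± 0.39.

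The 78 mitochondrial ribosomal protein genes make a different ribosome. Their medians were -0.14 in Melphalan against Control, 0.26 in Mel+MSC against Melphalan, -0.14 in MSC+Mel against Melphalan and -0.42 in MSC+Mel against Mel+MSC. Against Control they were 0.12 in Mel+MSC and -0.26 in MSC+Mel, where the cytosolic members had 0.29 and -0.25. Mrps22, Mrpl3 and Mrps18b were called lower in Melphalan than in Control (of all tested genes, 0.833% were) and higher in MSC+Mel than in Melphalan (0.817% of all), comparisons that share the Melphalan libraries. Mrpl3 had 38.4, 36.2 and 34.9 FPKM in MSC+Mel, 23.3, 29.6 and 29.5 FPKM in Mel+MSC, 16.2, 18.3 and 14.4 FPKM in Melphalan, and 35.01, 38.9 and 25.2 FPKM in Control. The Melphalan libraries lay below all others (against Control, -0.96 ± 0.19, limma adjusted p = 0.0352). Mrps22 fell by 0.97 and Mrps18b by 0.91 on the log2 scale in Melphalan against Control.

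Ribosomal protein genes have many processed pseudogenes, and reads from near-identical copies can be split in counting, so single levels are uncertain to that extent. The 317 ribosomal protein pseudogene entries of the table, of which 57 passed the filter, summed to 155 to 415 FPKM in a library, against 41550 to 93790 FPKM for the members.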

How the data were processed

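The authors deposited 1 table of FPKM values per gene and library, made with Cufflinks and Cuffnorm from STAR alignments, per the submitters' processing notes, which name mm10 and GRCm38. Tool versions, annotation, strand setting and the scaling between libraries are not given in the sources used here. Per the labels' protocols, total RNA was made into TruSeq RNA libraries. FPKM keeps no depth, so depth per library is unknown and the spread over 3 libraries is the measure of precision. All 12 columns matched a labelled sample.

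The filter asked for 1 FPKM in 3 libraries. Values entered limma 3.58.1 (R 4.3.3) as log2(FPKM + 1), with 1 mean per group, an intensity trend and 8 residual degrees of freedom. P-values were adjusted over the 12847 genes within each comparison. Coding lengths came from GENCODE M21, and figures from matplotlib 3.10.9. Samples with the same replicate number deviated together in Melphalan and Control (Pearson r 0.124, 0.233 and 0.184 for numbers 1, 2 and 3), and in no other pair of groups for all 3 numbers.

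The members and the 20 gene lists were chosen with earlier results of these data known. Named were called members, the 3 highest and 3 lowest fitted values of each comparison, the 3 highest and lowest mean levels, a set of members with known roles, the paralogs outside the naming rule (1 is not reported here), and at most 3 called genes of each other list. Where more than 12 members were called, the rule took 6 at each end. Rpl4, Rps9, Zmat3, Mdm2, Mdm4 and Trp53 were named after their values were seen. Alternatives were rescaling to equal sums, median-of-ratios and quantile scaling, no filter, a filter on a mean of at least 5 FPKM, 0.1 as pseudocount, 2 groups alone, a replicate block, leaving out each library, and removal of the length trend (a loess curve of span 0.5 on log2 coding length), which was chosen after seeing the data.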

Additional observations from a re-analysis of the deposited data

How the results depend on the processing

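With the replicate number as a block, 0 members were called in every comparison, and calls over all genes went to 73 in Melphalan against Control, 3 in Mel+MSC against Melphalan, 20 in MSC+Mel against Melphalan, 0 in MSC+Mel against Mel+MSC, 1 in Mel+MSC against Control and 5 in MSC+Mel against Control. Deviations of same-numbered libraries were positively correlated for all 3 numbers in Melphalan and Control only. Correlations between different numbers were not computed, so a pairing is not established there either. For the other pairs of groups these correlations ran down to -0.369, and same-numbered libraries share a number only. The block changed no call of a member.

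The median of the members in MSC+Mel against Melphalan moved to 0.12 with rescaling to equal sums and 0.21 with quantile normalization, and in MSC+Mel against Mel+MSC to -0.14 with quantile normalization. With 2 groups alone 1 member (Rpl38) was called in MSC+Mel against Melphalan. Rps3 in MSC+Mel against Mel+MSC was reversed, to 0.28 with rescaling to equal sums, 0.013 with median-of-ratios, 0.39 with quantile normalization and 0.11 with the length trend removed. The share of summed FPKM moved to 9.25% in MSC+Mel without mitochondrially encoded genes, and to 6.94% in MSC+Mel and 7.68% in Control without the 5 highest members. Without those 5 members the share was 8.96% in Mel+MSC and 6.67% in Melphalan. Such shares move by construction, since genes are taken out of the sums. The cause of the moves in medians and fitted values was not tested.

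Leaving out 1 library at a time, members called in MSC+Mel against Mel+MSC ran from 0 to 22 and were 0 in the other 5 comparisons. The medians ran from -0.96 to -0.31 in MSC+Mel against Mel+MSC, from 0.11 to 0.69 in Mel+MSC against Melphalan, from 0.011 to 0.67 in Mel+MSC against Control, from -0.38 to -0.15 in MSC+Mel against Melphalan, from -0.16 to 0.17 in Melphalan against Control and from -0.39 to -0.16 in MSC+Mel against Control. The values farthest from 0 in the 3 comparisons with Mel+MSC came without its replicate 3. Single members that changed sign ran from -1.09 to 0.62 (Rpl36a), from -1.11 to 0.71 (Rpl38) and from -1.31 to 0.89 (Rps28) in Mel+MSC against Melphalan, from -0.037 to 0.76 (Rpl37) in MSC+Mel against Melphalan, from -0.53 to 0.35 (Rpl19), from -0.29 to 0.21 (Rpl37) and from -0.20 to 0.21 (Rps3) in MSC+Mel against Mel+MSC, from -0.35 to 0.26 (Rpl14) in Mel+MSC against Control and from -0.12 to 0.51 (Rpl28) in MSC+Mel against Control. Beside the moves given here, the other settings moved 51 medians by less than the spread between replicates, although 1 of these turned in sign, to 0.00623 in MSC+Mel against Control with quantile normalization. They left 53 counts of called members unchanged and 319 single values on the same side. Depth is unknown, so differences under the spread of 3 libraries were not detectable.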
